A study of Mus musculus with 9 samples.

Results

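Open chromatin was examined at 7 genes that are known from the nonsensory walls of the cochlear duct and of the inner ear around it: Otx1, Otx2, Oc90, Lmx1a, Meis2, Esrrb and Mitf. An ATAC-seq peak was given to a gene when its summit lay nearest to a transcription start site (TSS) of that gene, within 500 kb, among all protein-coding transcripts (GENCODE vM1, mm9). By this rule 255 of 286577 peaks in 9 lists belonged to the 7 genes. Peaks from different lists with no more than 100 bp between them were joined into 1 region, and 85 of 68365 regions belonged to the 7 genes. Lists came from cochlear ducts of embryos of the strain B6;129S-Sox2tm2Hoch/J, heterozygous for an EGFP knocked into Sox2 in every sample, so that all groups carried 1 disrupted Sox2 allele and no group was wild type. The 3 Sox2-EGFP+ groups, at E12, E14.5 and E16, had 2 lists each, and the Sox2-EGFP- groups had 1 list at E14.5 (replicate 2) and 2 lists at E16. Each Sox2-EGFP+ replicate held the pooled ducts of 1 litter. Gates were set on the brightest and the dimmest cells, and cells of low EGFP, among them some nonsensory cells of the duct, were discarded and are in neither sort. The question asked was whether the 7 genes were open in Sox2-EGFP- cells, in Sox2-EGFP+ cells or in both.

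The cochlear duct has a floor, which holds the prosensory cells that become the organ of Corti, and a roof and lateral wall, which become Reissner's membrane and the stria vascularis. Sox2 marks the prosensory cells, and a set of homeodomain and other factors marks the walls and the borders between them. ATAC-seq inserts sequencing adapters where DNA is free of nucleosomes, so that a peak marks an open promoter or a possible enhancer. A peak says nothing about whether the gene nearest to it is transcribed, and an enhancer can serve a gene that is not the nearest.

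The genes lie at chr11:21894767-21902900 (Otx1, minus strand), chr14:49277354-49287319 (Otx2, minus), chr15:65707615-65743959 (Oc90, minus), chr1:169619370-169778872 (Lmx1a, plus), chr2:115688800-115891575 (Meis2, minus), chr12:87702067-87862578 (Esrrb, plus) and chr6:97757052-97971352 (Mitf, plus), as mm9 spans of their coding transcripts. A set of 7 regions around them carries most of what follows, and their sequences are given here so that each can be found again (mm9, plus strand, 201 bases centred on the summit, none overlapping a coding transcript's exon). Names give the gene and the distance of the summit from its nearest TSS along the gene. The first was in every Sox2-EGFP+ list and the second in every Sox2-EGFP- list, both at Lmx1a (chr1:169808162-169808362 and chr1:169753125-169753325). The next was in most Sox2-EGFP+ lists and lies inside Meis2 (chr2:115846465-115846665). The Otx1 and Esrrb regions were the highest distal ones of these genes (chr11:21764102-21764302 and chr12:87743764-87743964), and the Otx2 regions were the only ones of Otx2 with peaks in Sox2-EGFP- lists (chr14:49271318-49271518 and chr14:49381020-49381220). Capitals mark matches to the consensus letters of 9 factor families that are described with the motif counts.
Lmx1a +188.6 kb: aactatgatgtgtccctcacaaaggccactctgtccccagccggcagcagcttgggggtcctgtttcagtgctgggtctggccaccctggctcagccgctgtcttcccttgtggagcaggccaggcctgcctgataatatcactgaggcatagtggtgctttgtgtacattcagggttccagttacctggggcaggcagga
Lmx1a +133.5 kb: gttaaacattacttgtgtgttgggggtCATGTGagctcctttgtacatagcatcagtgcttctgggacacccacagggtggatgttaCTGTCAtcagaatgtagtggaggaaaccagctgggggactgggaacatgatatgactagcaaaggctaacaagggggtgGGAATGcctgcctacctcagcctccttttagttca
Meis2 +21.2 kb: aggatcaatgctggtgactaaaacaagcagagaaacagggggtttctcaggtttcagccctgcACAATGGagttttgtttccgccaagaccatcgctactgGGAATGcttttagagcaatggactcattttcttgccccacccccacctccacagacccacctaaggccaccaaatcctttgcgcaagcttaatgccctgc
Otx1 +137.4 kb: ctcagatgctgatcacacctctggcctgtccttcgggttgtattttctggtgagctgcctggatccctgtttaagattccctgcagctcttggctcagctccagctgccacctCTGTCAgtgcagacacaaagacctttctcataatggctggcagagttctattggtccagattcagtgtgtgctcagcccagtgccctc
Esrrb -18.7 kb: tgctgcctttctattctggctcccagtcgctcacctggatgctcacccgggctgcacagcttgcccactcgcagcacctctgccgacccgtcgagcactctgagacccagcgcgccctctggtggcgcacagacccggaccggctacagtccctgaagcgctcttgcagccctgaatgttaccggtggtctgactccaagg
Otx2 +10.2 kb: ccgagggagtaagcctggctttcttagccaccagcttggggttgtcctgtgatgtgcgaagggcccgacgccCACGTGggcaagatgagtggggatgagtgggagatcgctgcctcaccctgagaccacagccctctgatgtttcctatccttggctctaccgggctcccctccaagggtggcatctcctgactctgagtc
Otx2 -93.8 kb: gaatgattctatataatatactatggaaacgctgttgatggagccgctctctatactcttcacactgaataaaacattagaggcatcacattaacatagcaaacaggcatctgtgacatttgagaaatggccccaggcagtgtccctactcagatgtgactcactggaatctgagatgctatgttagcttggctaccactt

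Most regions of the 7 genes were found in Sox2-EGFP+ lists alone. This held for 72 of 85 (84.7%), while 8 (9.41%) had peaks in both cell types and 5 (5.88%) had peaks in Sox2-EGFP- lists alone. Over all 68365 regions, the shares were 65.2% for Sox2-EGFP+ lists alone, 29.2% for both and 5.59% for Sox2-EGFP- lists alone. Only 8 of the 85 regions lay within 1 kb of a TSS, and among the other 77, the distal ones, 88.3% had peaks in Sox2-EGFP+ lists alone, beside 78.5% of 53346 distal regions of all genes. Regions with peaks in Sox2-EGFP- lists alone were found at Lmx1a (1), Meis2 (2) and Otx2 (2). By position, 41 summits lay in introns, 38 between genes and 6 in exons, and widths ran from 225 to 1423 bp with a median of 512 bp.

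The lists differ greatly in length, and this bears on every count above. E14.5 Sox2-EGFP+ replicate 1 had 66281 peaks and E16 Sox2-EGFP+ replicate 2 had 65820, the other Sox2-EGFP+ lists of these stages 22922 and 39273, the Sox2-EGFP- lists between 23263 and 23861, and the E12 lists 13789 and 7551. Of the 85 regions, 41 (48.2%) had a peak in the pair of longest lists and nowhere else, beside 35% of all regions. Without that pair, 32 of 45 regions (71.1%) at the 7 genes had peaks in Sox2-EGFP+ lists alone, beside 47.4% of all regions. Both shares still hold peaks of 1 other Sox2-EGFP+ list that were kept in the deposit only through that pair, as at Lmx1a -27.9 kb. In the E14.5 and E16 lists, the median rank of the peaks of the 7 genes was below the middle of the list. It stood at 62.4% and 63.8% of the longest lists and at 71.7% to 86.7% of the Sox2-EGFP- lists (0% being the highest peak). In the E12 lists, with 10 and 2 such peaks, it stood at 36.4% and 57.9%. Every deposited peak overlapped a peak of another list of the same cell type, so that presence in 2 lists of a cell type is no finding.

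**Figure D1:**
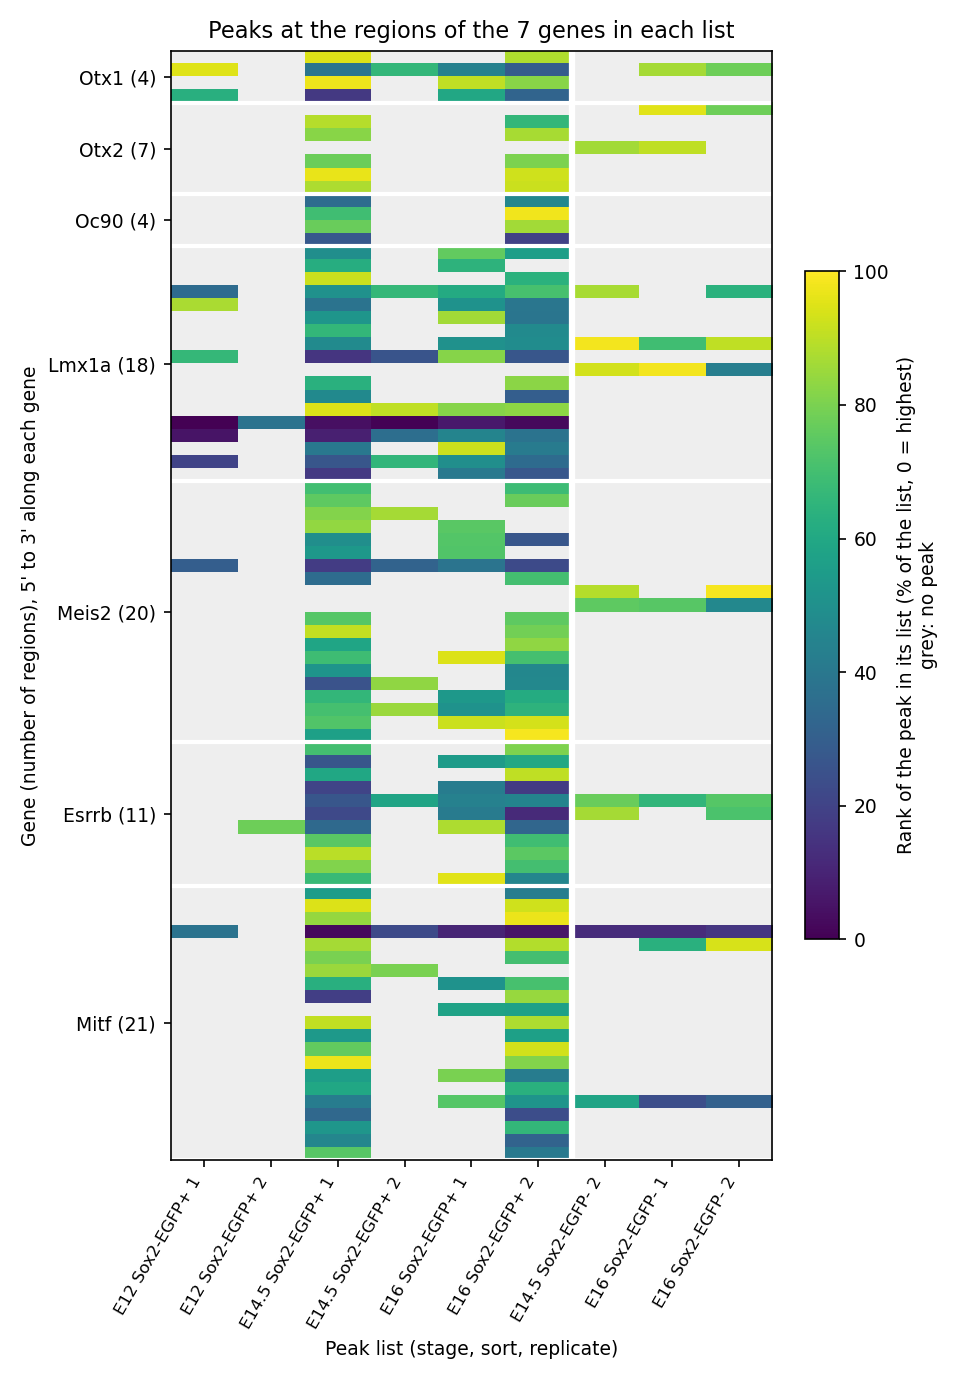
Each row is 1 of the 85 regions, sorted by gene and 5' to 3' within it, and each column is a peak list. Colour gives the rank of the region's highest peak as a percentage of its list (0 = highest) and grey means no peak. The columns of E14.5 Sox2-EGFP+ replicate 1 and E16 Sox2-EGFP+ replicate 2 are the fullest, and 41 regions have a peak in these columns alone.

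To set lists of 1 length side by side, each E14.5 and E16 list was limited to its 20000 top peaks by -log10 p and merged in the same way. The 7 genes then had 30 regions, and 19 (63.3%) came from Sox2-EGFP+ lists alone, 6 (20.0%) in both and 5 (16.7%) in Sox2-EGFP- lists alone. Over all 34052 regions of these lists the shares were 33.5% for Sox2-EGFP+ lists alone and 18.0% for Sox2-EGFP- lists alone. The share of regions from Sox2-EGFP- lists alone was thus close to that of all genes, while regions shared by both cell types were fewer (20.0% beside 48.5%). Promoters are mostly shared and are rare among these regions (5 of 30). In the distal regions, 18 of 25 (72.0%) had peaks in Sox2-EGFP+ lists alone beside 49.6% of all distal regions.

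**Figure D2:**
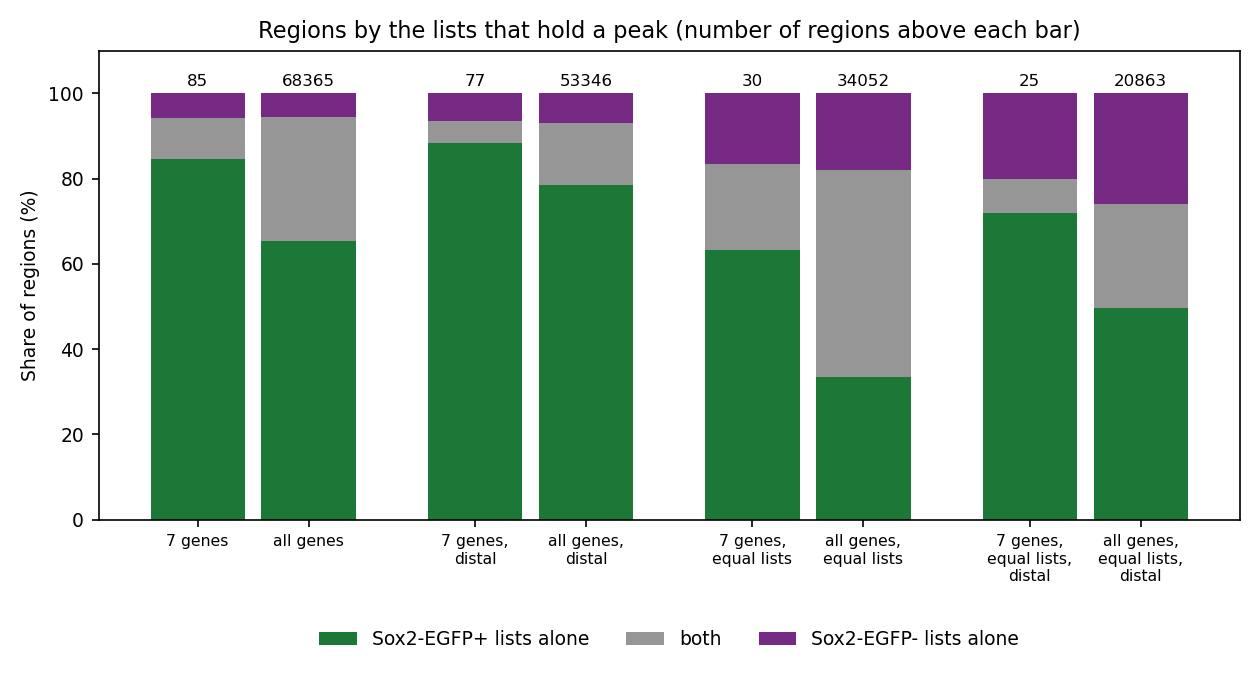
Stacked bars give the percentage of regions with peaks in Sox2-EGFP+ lists alone, in both cell types and in Sox2-EGFP- lists alone, for the 7 genes and for all genes. From left to right the pairs of bars show all regions of the 9 lists, distal regions (over 1 kb from a TSS), and both again for the 20000 highest peaks of each E14.5 and E16 list. The share from Sox2-EGFP+ lists alone is larger at the 7 genes in each pair of bars, 84.7% beside 65.2% in the first and 63.3% beside 33.5% in the third.

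Counted in the same lists of 20000 peaks, marker genes of otic mesenchyme, endothelium, epithelium and prosensory cells moved with the sort. The summed counts for melanocytes, for macrophages and for Schwann cells and glia overlapped between the sorts. All samples are labelled as cells of the cochlear duct. Each of the 10 otic mesenchyme genes had a peak in the Sox2-EGFP- lists, and all but 3 (Prrx1, Col1a2 and Pdgfrb) also had a peak in the Sox2-EGFP+ lists. The 10 genes together had 20 to 23 peaks in Sox2-EGFP- lists and 3 to 7 in Sox2-EGFP+ lists. For 5 of the 10 (Tbx18, Coch, Twist1, Prrx1 and Col1a2) the groups did not overlap, with Sox2-EGFP- higher. Over all genes tested, groups did not overlap for 4.33% with Sox2-EGFP- higher and for 5.22% with Sox2-EGFP+ higher. Pdgfra went the other way, with 1, 2, 2 and 1 peaks in Sox2-EGFP+ lists and 0, 1 and 1 in Sox2-EGFP- lists. Endothelial genes (8) had 12 to 16 peaks in Sox2-EGFP- lists and 2 to 8 in Sox2-EGFP+ lists, with no overlap for Kdr, Erg and Emcn, while Pecam1 and Tie1 had none in Sox2-EGFP- lists. Pan-epithelial genes (9) had 8 or 9 peaks in Sox2-EGFP- lists and 22 to 27 in Sox2-EGFP+ lists. Groups did not overlap for 4 of the 9 (Grhl2, Esrp1, Krt8 and Cldn7, beside 5.22% of all genes), and Esrp1, Cldn7 and Rab25 had no peak in the Sox2-EGFP- lists. The Sox2-EGFP- lists thus held fewer peaks at epithelial genes, and the part of this in the counts at the 7 genes was not tested. Prosensory genes (10) had 33 to 44 peaks in Sox2-EGFP+ lists and 21 to 24 in Sox2-EGFP- lists, with no overlap for 4 of the 10 (Sox2, Isl1, Fgf20 and Gata3, beside 5.22% of all genes). Jag1, of the same list, had 2, 2, 2 and 3 peaks in Sox2-EGFP+ lists and 4, 4 and 2 in Sox2-EGFP- lists. Melanocyte genes (8) had 7 to 10 peaks in Sox2-EGFP+ lists and 6 to 8 in Sox2-EGFP- lists, with Tyr, Pmel, Mlana and Slc45a2 at 0 in both, and of the macrophage genes (10) 5 were at 0 in Sox2-EGFP+ lists and 8 in Sox2-EGFP- lists. Groups did not overlap for 1 melanocyte gene (Dct, Sox2-EGFP+ higher) and 2 macrophage genes (Sfpi1, Sox2-EGFP+ higher, and Clec7a, Sox2-EGFP- higher), counts too small to set apart from the 5.22% and 4.33% of all genes. Genes of Schwann cells and glia (6) had 5 to 8 peaks in Sox2-EGFP+ lists and 4 or 5 in Sox2-EGFP- lists. Peaks come from mixed cells, so that fewer cells of a type and a less open site in each cell cannot be told apart.

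Peaks per gene in lists of 20000 differed between the sorts at Lmx1a and overlapped at the other 6 genes. Lmx1a had 5 and 5 peaks in the E14.5 Sox2-EGFP+ lists and 5 and 4 in the E16 Sox2-EGFP+ lists. In the Sox2-EGFP- lists it had 0 at E14.5 and 1 and 2 at E16. All 4 Sox2-EGFP+ lists were thus above all 3 Sox2-EGFP- lists, with 4.75 ± 0.5 (SD, n = 4) against 1 ± 1 (SD, n = 3) peaks. The two-sided exact permutation test gave p = 0.0286, the smallest that 4 against 3 lists allow, and the Benjamini-Hochberg adjusted p over 15665 genes was 0.34. Groups did not overlap with Sox2-EGFP+ higher for 5.22% of all genes tested and with Sox2-EGFP- higher for 4.33%, so that 1 of 7 genes is to be read against this background. No gene reached an adjusted p under 0.05, while 1318 had an unadjusted p under 0.05 by the same exact permutation test. Sox2-EGFP- cells were in some cases sorted alongside the positive cells, so that lists of 1 stage and number may share a litter. With the 3 such pairs as a replicate block, the mean difference was 3.67 and the exact sign-flip p was 0.25, the smallest that 3 pairs allow. The Lmx1a call rests on peaks far from the gene's start, since with a limit of 100 kb the mean difference was -0.0833 peaks and the groups overlapped.

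At the other genes the means differed by less than or about as much as the lists of 1 sort differed among themselves. Meis2 had 2, 4, 1 and 2 peaks in the Sox2-EGFP+ lists and 1 in each Sox2-EGFP- list, so that the lowest Sox2-EGFP+ list was level with the Sox2-EGFP- lists (exact permutation p = 0.143, adjusted p = 0.626). Esrrb had 4, 1, 3 and 2 against 1, 1 and 2, with most lists in the same range (exact permutation p = 0.371, adjusted p = 1). Otx1 had 1 peak in every Sox2-EGFP+ list and 0, 0 and 1 in the Sox2-EGFP- lists (exact permutation p = 0.143, adjusted p = 0.626). Mitf had 2 in every Sox2-EGFP+ list and 2, 3 and 2 in the Sox2-EGFP- lists, which overlap at 2 (exact permutation p = 0.429, adjusted p = 1). Oc90 had 1 peak in each of the longest lists and none elsewhere, and Otx2 had 1 peak in E16 Sox2-EGFP- replicate 2 and none elsewhere. The median difference over the 7 genes was 0.667 peaks, and over all genes tested it was 0.

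**Figure D3:**
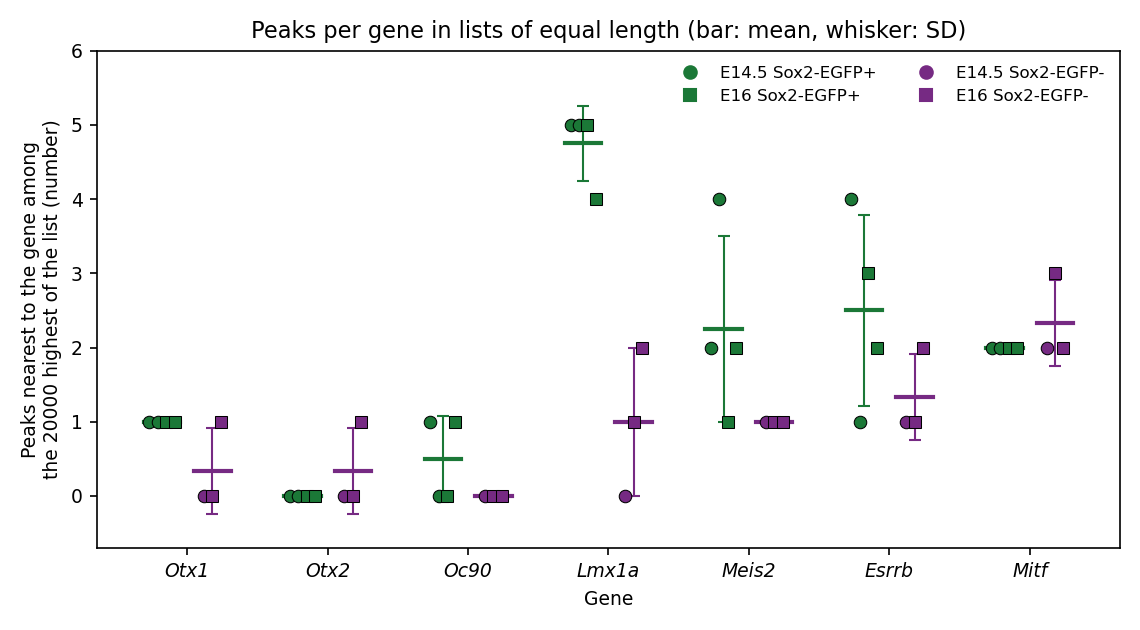
Points give the number of peaks nearest to each gene among the 20000 highest of each E14.5 (circles) and E16 (squares) list, green for Sox2-EGFP+ and purple for Sox2-EGFP-; bars are means and whiskers SDs. Lmx1a, with 4 to 5 peaks against 0 to 2, is the only gene of the 7 whose groups do not overlap.

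Lmx1a encodes a LIM homeodomain factor that is needed for the separation of sensory from nonsensory domains in the inner ear. Its 18 regions ran from -27.9 kb to +225.9 kb, past the end of the gene. Of these, 15 had peaks in Sox2-EGFP+ lists alone, 2 in both cell types and 1 in Sox2-EGFP- lists alone. Of the first kind, 11 had a peak outside the pair of longest lists, some of them in only 1 other list. The +188.6 kb region (chr1:169807902-169808860) lies between genes, 259.8 kb from Rxrg, the next coding start. It was the only one of the 85 regions with a peak in all 6 Sox2-EGFP+ lists, and it had none in the 3 Sox2-EGFP- lists.

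The +188.6 kb peak ranked 24 and 2867 in the E12 lists, 2629 and 159 in the E14.5 Sox2-EGFP+ lists and 2690 and 1695 in the E16 Sox2-EGFP+ lists. Fold enrichment over the local background was 11.8 and 5.56 at E12, 11.4 and 8.22 at E14.5 and 11.2 and 10.1 at E16. Except in E12 replicate 2, where it stood at 38.0% of the list, the peak was thus among the highest 6.85% of each list. The regions at +128.3 kb, +199.0 kb and +215.0 kb were of the same kind, each with a peak in every Sox2-EGFP+ list but E12 replicate 2 and in no Sox2-EGFP- list. Fold enrichment at +199.0 kb was 9.09 at E12, 11.6 and 4.92 at E14.5, and 6.06 and 5.96 at E16. That of +215.0 kb was 7.28 at E12, 9.80 and 3.98 at E14.5, and 6.59 and 7.36 at E16, and that of +128.3 kb was 5.24 at E12, 10.1 and 5.27 at E14.5, and 4.29 and 7.22 at E16.

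A different intronic region of Lmx1a had peaks in Sox2-EGFP- cells. The +133.5 kb region (chr1:169752849-169753339) had a peak in all 3 Sox2-EGFP- lists and in no Sox2-EGFP+ list, the longest lists included. Its fold enrichment was 3.48 at E14.5 and 3.86 and 6.92 at E16, at 93.1%, 98.3% and 42.7% of the lists, so that it was near the lower end of 2 of the 3 lists. The +113.1 kb region was shared, with peaks in all 3 Sox2-EGFP- lists (98.3%, 69.3% and 90.3% of the list) and in 3 Sox2-EGFP+ lists (47.8%, 50.5% and 48.5%). The promoter region was shared as well, with peaks in 5 Sox2-EGFP+ and 2 Sox2-EGFP- lists.

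Meis2 encodes a TALE homeodomain factor that is expressed in the otic vesicle. It had 20 regions, 18 with peaks in Sox2-EGFP+ lists alone and 2 in Sox2-EGFP- lists alone, and none in both. The +21.2 kb region (chr2:115845712-115847106), in an intron, had a peak in every Sox2-EGFP+ list but E12 replicate 2, with a fold enrichment of 6.60 at E12, 9.18 and 5.30 at E14.5, and 6.77 and 7.08 at E16. These peaks stood between 17.6% and 38.4% of their lists, and no Sox2-EGFP- list had a peak there. Within the same gene, the +32.7 kb region (chr2:115835037-115835302) had peaks in E14.5 Sox2-EGFP- replicate 2 and E16 Sox2-EGFP- replicate 2, at 88.9% and 98.6% of these lists, and in no Sox2-EGFP+ list. Meis2 promoter peaks were found in Sox2-EGFP+ lists. The region at an inner start site (chr2:115698413-115699147) had a fold enrichment of 12.3 and 4.09 at E14.5 and 6.64 in E16 replicate 2, and the region at the first start site (chr2:115891333-115891649) had 5.66 in E14.5 replicate 1 and 4.12 in E16 replicate 1.

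**Figure D4:**
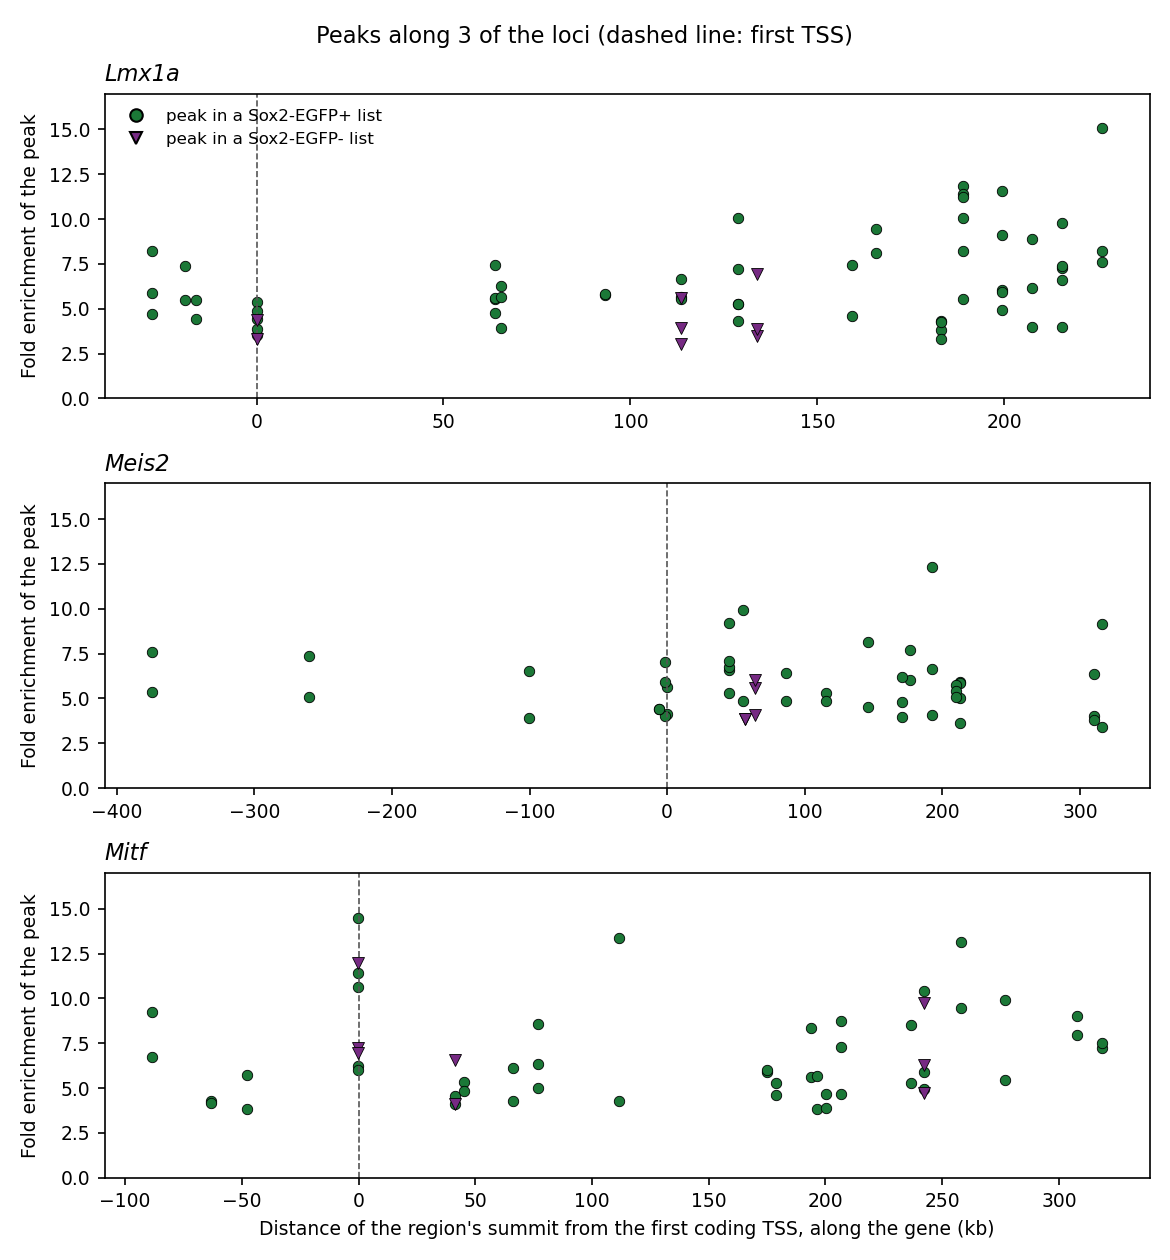
Each symbol is the highest peak of a region in 1 list (green circle, Sox2-EGFP+; purple triangle, Sox2-EGFP-), at its distance in kb from the first coding TSS along the gene, with its fold enrichment over the local background on the y axis. At Lmx1a all symbols to the right of the +133.5 kb region are green circles, with 6 circles at +188.6 kb, whose nearest TSS is the second of the gene. At Meis2 purple triangles stand at 2 positions with no green circle, and at Mitf triangles stand beside circles at 3 positions.

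Otx1 and Otx2 encode homeodomain factors of the roof and lateral wall of the duct, and Otx1 is required for the lateral semicircular canal. Otx1 had 4 regions. Its promoter region (chr11:21901388-21902253) had peaks in 5 Sox2-EGFP+ lists, of fold 3.93 at E12, 5.97 and 3.46 at E14.5 and 4.76 and 5.95 at E16, and in both E16 Sox2-EGFP- lists, of fold 4.11 and 4.06. The highest distal region, at +137.4 kb inside an intron of Wdpcp (chr11:21763820-21764683), had peaks in 4 Sox2-EGFP+ lists, of fold 5.63 at E12 replicate 1, 13.0 at E14.5 replicate 1, and 5.77 and 6.85 at E16, and in no Sox2-EGFP- list. The remaining regions, at +8.6 kb and -12.2 kb, had peaks in 3 and 2 Sox2-EGFP+ lists, all at 82.1% or lower down the list.

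Otx2 had 7 regions and no peak within 1 kb of any of its 7 coding start sites in any list. Of these, 5 were seen in the pair of longest lists alone, at 66.3% to 96.5% of these lists. The other 2 were seen in Sox2-EGFP- lists alone. The +10.2 kb region (chr14:49271230-49271515) had peaks of fold 3.77 in the E14.5 Sox2-EGFP- list and 4.64 in E16 Sox2-EGFP- replicate 1, and the -93.8 kb region (chr14:49380810-49381202) had peaks of fold 4.25 and 4.69 in the E16 Sox2-EGFP- lists. All these peaks ranked low, at 77.8% or lower down their lists, so that Otx2 had no strong peak in either sort. By share, 2 of its 7 regions, all distal, came from Sox2-EGFP- lists alone, beside 6.89% of all distal regions.

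Oc90 encodes otoconin-90, the main protein of the otoconial matrix, which is made by nonsensory epithelium. Its 4 regions all had peaks in E14.5 Sox2-EGFP+ replicate 1 and E16 Sox2-EGFP+ replicate 2 and in no other list. The promoter region (chr15:65743736-65744343) had a fold enrichment of 9.22 and 6.25 in these lists, at 35.5% and 46.2% of their length. The +36.5 kb region was higher, with 13.4 and 10.2, but it overlaps an exon of the neighbouring gene Efr3a. A peak at rank 23542 or 30420, as at this promoter, is near or beyond the end of the other E14.5 Sox2-EGFP+ list and of the Sox2-EGFP- lists, and its absence there does not show closed chromatin. E16 Sox2-EGFP+ replicate 1, with 39273 peaks, reaches past these ranks and had no Oc90 peak. The +36.5 kb peaks ranked 18642 and 12835, inside the length of the other E14.5 and E16 lists, which had none there.

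Esrrb encodes an orphan nuclear receptor of the marginal cells of the stria vascularis, and loss of the human gene causes deafness. It had 11 regions, 9 with peaks in Sox2-EGFP+ lists alone and 2 in both sorts. The region at its first start site (chr12:87701947-87702301) had peaks in the pair of longest lists alone, of fold 7.5 and 4.27. The region over an inner start site (chr12:87762296-87763001) was open in both sorts at E14.5 and E16. Fold enrichment there was 9.61 and 3.74 in the E14.5 Sox2-EGFP+ lists, 6.09 and 6.39 in the E16 Sox2-EGFP+ lists, 3.54 in the E14.5 Sox2-EGFP- list and 5.38 and 4.43 in the E16 Sox2-EGFP- lists, so that the sorts overlapped. The +11.6 kb region was also shared, with peaks in 3 Sox2-EGFP+ lists (12% to 41.7% of the list) and 2 Sox2-EGFP- lists (71.7% and 86.7%). The -18.7 kb region (chr12:87743655-87744049) had peaks of fold 14.6 in E14.5 Sox2-EGFP+ replicate 1 and 7.07 and 10.7 in the E16 Sox2-EGFP+ lists and none in a Sox2-EGFP- list. No E12 list had a peak at an Esrrb promoter.

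Mitf encodes a basic helix-loop-helix leucine zipper factor that is the master regulator of melanocytes, from which the intermediate cells of the stria come. It had 21 regions, 18 with peaks in Sox2-EGFP+ lists alone and 3 in both sorts. Of the 18, 14 had peaks in the pair of longest lists and nowhere else. The region at its first start site (chr6:97756641-97757715) was the most widely shared of the 85, with a peak in 8 of 9 lists. Its peak stood at 37.9% of the list at E12, 2.4% and 22.5% at E14.5 and 10.2% and 5.82% at E16 in Sox2-EGFP+ lists, and at 12.5% at E14.5 and 12.6% and 15.7% at E16 in Sox2-EGFP- lists. The ranks in the Sox2-EGFP- lists, 2914, 2996 and 3757, lay inside the range of the Sox2-EGFP+ lists, 1591 to 5226. A shared region past the end of the gene, +57.4 kb (chr6:97998671-97999510), was picked out after its values were seen. It stood at 58.4%, 24.0% and 31.0% of the Sox2-EGFP- lists and at 42.1%, 73.7% and 51.6% of 3 Sox2-EGFP+ lists, which overlap. Its fold enrichment, 4.74, 9.74 and 6.31 against 10.4, 4.94 and 5.88, overlapped as well. The intronic +41.3 kb region had peaks in both E16 Sox2-EGFP- lists (63.6% and 93.9%) and in the pair of longest lists (86.7% and 88.4%). The distal region with the best mean rank, +73.3 kb (chr6:98014935-98015302), had peaks of fold 13.1 and 9.46 in the pair of longest lists and none elsewhere.

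At promoters the 7 genes were not all alike. In all, 35 of 63 pairs of gene and list had a peak within 1 kb of a coding TSS: Mitf in 8 lists, Otx1, Lmx1a and Esrrb in 7 each, Meis2 in 4, Oc90 in 2 and Otx2 in none. In the E14.5 and E16 Sox2-EGFP+ lists, 5 or 6 of the 7 genes had a promoter peak, where 52.5% to 64.1% of 22238 protein-coding genes did. In the Sox2-EGFP- lists, 3 or 4 of the 7 did, where 55.9% to 56.6% of all genes did. Mitf, Esrrb, Otx1 and Lmx1a had promoter peaks in both sorts, while Meis2 and Oc90 had them in Sox2-EGFP+ lists alone. Those of Oc90 were in the pair of longest lists only. In lists of 20000 peaks, Oc90 had a promoter peak in 0 lists and Meis2 in 2. Over all genes, 15019 of 68365 regions lay within 1 kb of a TSS. Of the 44608 regions from Sox2-EGFP+ lists alone, 41872 were distal. At E12, replicate 1 had a promoter peak at Otx1, Lmx1a and Mitf and replicate 2 at none of the 7, where 39.5% and 25.6% of all genes had one.

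**Figure D5:**
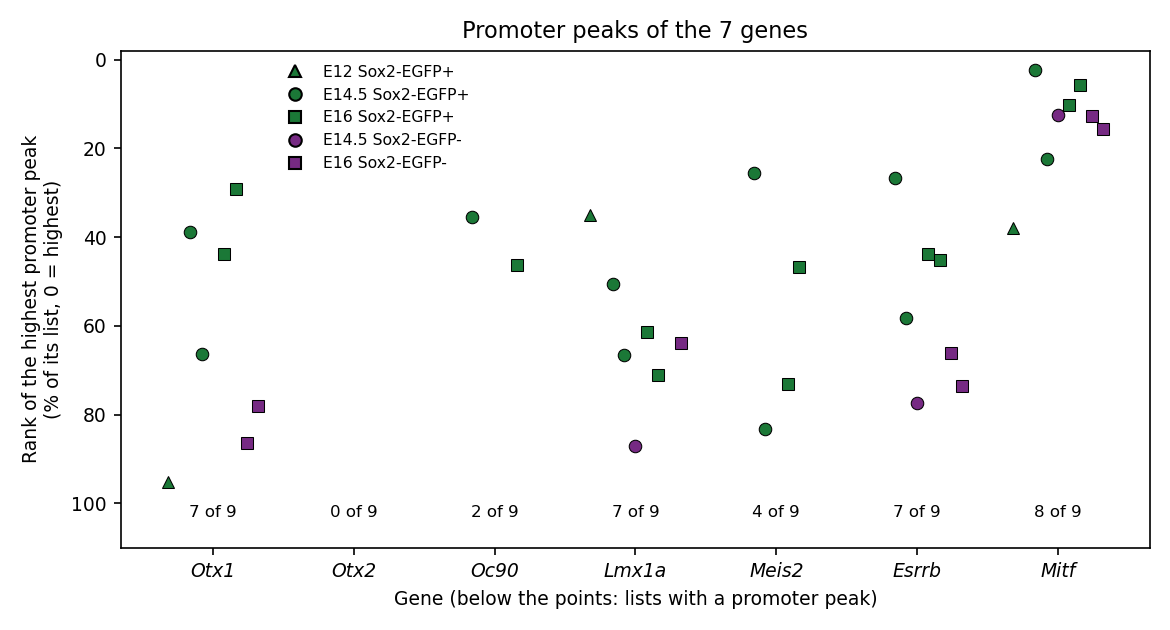
Each point is the highest promoter peak (summit within 1 kb of a coding TSS) of a gene in 1 list, plotted by its rank as a percentage of the list, with 0, the highest peak, at the top; green is Sox2-EGFP+, purple Sox2-EGFP-, and shape gives the stage. Mitf peaks stand between 2.4% and 37.9% in both colours, above the other genes in 7 of the 8 lists with a point, and in E12 replicate 1 Lmx1a stands above it at 34.9%, and Otx2 has no point.

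By stage, the 7500 highest peaks of each Sox2-EGFP+ list held 6 and 2 peaks of the 7 genes at E12, 3 and 4 at E14.5 and 2 and 2 at E16. The replicates at E12 differed by more than the stages did, and 2 lists against 2 cannot give a permutation p under 0.33. Lmx1a had 4 and 1 of these peaks at E12, 2 and 2 at E14.5 and 1 and 1 at E16, and it was the only one of the 7 genes with such a peak in each of the 6 lists. Mitf had 1 peak, at its promoter, in 5 of the 6 lists. Otx1, Otx2 and Oc90 had none in any list. Scaled over all peaks instead, as peaks per 7500, the sum was 5.44 and 1.99 at E12, 9.17 and 5.56 at E14.5 and 7.07 and 8.55 at E16, so that the direction depends on how far down the lists the count goes. Of the 85 regions, 11 had a peak in an E12 list, 6 of them at Lmx1a, beside 13859 of all 68365 regions. Among distal regions it was 8 of 77, beside 5181 of 53346. Sox2-EGFP- cells at E12 were not analysed here.

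Other genes of the nonsensory epithelium did not share 1 direction. Of 16 such genes, counted in lists of 20000, the groups did not overlap for 2, Bmp4 and Tbx1, both with more peaks in Sox2-EGFP- lists (background 4.33%), and for none with more in Sox2-EGFP+ lists (5.22%). Bmp4, the signal of the outer, abneural side of the duct, had 1, 0, 1 and 1 peaks in Sox2-EGFP+ lists and 2 in each Sox2-EGFP- list. Tbx1, a T-box factor of the otocyst and the mesenchyme, had 0 in each Sox2-EGFP+ list and 1 in each Sox2-EGFP- list. The 16 genes together had 16 to 22 peaks in Sox2-EGFP+ lists and 16 to 18 in Sox2-EGFP- lists, which overlap. Among the potassium channel genes of the stria, Kcnq1 had 2, 4, 4 and 3 against 3, 3 and 4, and Kcne1 had 1, 0, 0 and 1 against none. Of 9 relatives of the 7 genes, Esrrg alone had groups that did not overlap, with 2, 3, 1 and 3 peaks in Sox2-EGFP+ lists and 5 in each Sox2-EGFP- list. The 9 relatives together had 10 to 15 peaks in Sox2-EGFP+ lists and 19 to 21 in Sox2-EGFP- lists, and Crx, the Otx relative of photoreceptors, had none. Lmx1b, the paralogue of Lmx1a, had 5, 0, 2 and 2 against 1, 3 and 4, which overlap.

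Consensus letters were searched within 200 bp to either side of the summit of the 77 distal regions, on both strands, as exact matches. The E-box letters of Mitf, CACGTG or CATGTG, were in 28 windows (36.4%), beside 28.1% of 53345 distal windows of all genes. The letters of Tead, GGAATG, were in 25 (32.5% beside 25.5%), those of Meis, TGACAG, in 18 (23.4% beside 28.3%), and those of Sox, ACAATGG, in 8 (10.4% beside 8.74%). The homeodomain letters of Otx, TAATCC, were in 6 (7.79% beside 11.1%) and those of Lmx, TAATTA, in 6 (7.79% beside 7.55%). The letters of Esrrb, CAAGGTCA, were in 3 (3.90% beside 2.39%), and AGATAAG, for Gata factors, was in 3 (3.90% beside 6.89%), while AACCGGTT, for Grhl factors, was in 0 (beside 0.317%). These shares are a description of windows that differ little in base composition, with a median GC content of 47.4% beside 49.6%. In the sequences given above, none of these letters fell in the 201 bases of Lmx1a +188.6 kb. The +21.2 kb window of Meis2 held a Sox and a Tead match, and that of Lmx1a +133.5 kb a Mitf, a Meis and a Tead match.

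Genes with the most similar pattern were sought over the 9 lists, by Pearson's r of the share of each list's peaks that were nearest to the gene, among 10573 other genes with at least 10 peaks. The closest to Lmx1a were Rbpms (r = 0.976), Ddc (0.966) and Ankrd16 (0.958). To Meis2 they were Wnt5a (0.985), Gdnf (0.977) and Sox6 (0.977), and to Mitf they were Ntm (0.986), Acoxl (0.983) and Dpp10 (0.983). To Otx1 they were 1810062G17Rik (0.974), Znfx1 (0.943) and Asb2 (0.942), to Otx2 Aldoart1 (0.975), AU021034 (0.961) and Ttc23l (0.954), and to Esrrb Pvrl1 (0.946), Gm16499 (0.946) and Gadd45g (0.943). Oc90, with 8 peaks in all, was left out. All genes share the 9 lists and their lengths, and these values are a description.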

How the data were processed

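ATAC-seq peak lists of 9 samples in 5 groups were used. Reads were trimmed with Trim Galore, aligned to mm9 with Bowtie2, filtered with Picard and SAMtools, and peaks were called with MACS2 in each sample. A replication filter by the authors followed, which left a peak in a list if a second sample of its type had one there (tool versions not given in the sources used here). The deposited fold enrichment is a ratio of summit pileup to local background. The deposited −log10 p and q refer to the same summit. The lists hold no read counts. Ranks and list length were used in place of depth, and list length need not follow the number of reads.

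Samples were grouped by title and source name. In 3 of 4 E16 samples the cell type tag names the other sort, while the peak names inside the 4 E16 lists match the titles. Sox2-EGFP+ replicates were separate litters, and p-values measure the spread between lists. Distal regions of the 20000 highest peaks overlapped by 55.1% to 58.3% between Sox2-EGFP- lists, by 41.2% to 53.7% between Sox2-EGFP+ lists and by 19.5% to 27.4% between the sorts (Jaccard index). Mitochondrial peaks and peaks on chromosomes without a coding gene were left out. Ranks are by −log10 p.

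Merging distance was 100 bp. A region took the gene of its peak with the highest relative rank. Peaks per gene were compared by a two-sided exact permutation test over 35 choices of the 4 Sox2-EGFP+ lists, for every gene with a peak, with Benjamini-Hochberg adjustment. Code was tested on simulated data. Described by name were all 7 genes, their promoter regions, every region in Sox2-EGFP- lists alone or in at least 5 Sox2-EGFP+ lists, and the distal region with the best mean rank, except 1 region that is not reported here. Tfe3, Tfeb, Tfec and Spi1 were found under older symbols. The members and the gene lists were chosen with earlier results of these data known. Python 3.11.15, NumPy 2.4.6, SciPy 1.17.1, matplotlib 3.10.9, pysam 0.24.0 and bedtools 2.31.1 were used.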

Additional observations from a re-analysis of the deposited data

Results flagged for a closer look

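Of 25 sets of 4 or 6 Sox2-EGFP+ values tested with Dixon's ratio of gap to range, 5 had a value apart from the rest. The limits of this ratio are set to about 1 in 20 for continuous values. That rate does not hold for small counts with many ties, so 5 of 25 cannot be set against it. The peaks of Lmx1a in lists of 20000 were 4 in E16 replicate 2 and 5 in the other 3 lists, a difference of 1 peak. Among the 7500 highest peaks, Lmx1a had 4 in E12 replicate 1 and 1 or 2 in the other 5 lists. Esrrb had 1 such peak in E12 replicate 2 and 0 elsewhere, and Mitf had 0 in E12 replicate 2 and 1 elsewhere. The fold enrichment of the Lmx1a +199.0 kb region was 11.6 in E14.5 replicate 1 and 4.92 to 6.06 in the other E14.5 and E16 lists. For these counts 1 peak is enough to set a list apart, and no difference was tested further.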

How the results depend on the processing

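The share of regions of the 7 genes with peaks in Sox2-EGFP+ lists alone, 84.7%, stayed within its 95% Wilson interval under 16 of 19 alternatives. That interval treats the regions as independent, although they lie at 7 genes and come from the same lists. Many of the 16 alternatives leave out a list, which the overlap filter largely fixes. The count of 16 is thus no measure of stability. The share was 63.3% in lists of 20000 and 71.1% without the pair of longest lists. Leaving out that pair and keeping distal regions alone were alternatives chosen after seeing the data. Under the cell type tags the share was 7.06%, beside 5.89% of all regions. The number of regions of Sox2-EGFP- lists alone was then 0 in place of 5, beside 0% of all regions. That number was 3 of 78 with a −log10 q of at least 5, beside 4.97% of all regions. With start sites of any biotype it was 3 of 62, beside 5.62%. Leaving out each list gave 84.7% to 84.9% and 5 to 6 regions, which the overlap filter of the deposited lists largely fixes. An overlap rule of 50% changes nothing by construction, since a merged region contains its peaks whole.

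The number of the 7 genes with more peaks in every Sox2-EGFP+ list was 1 (Lmx1a), beside 5.22% of all genes. With all peaks per 20000 it was 4 (Otx1, Lmx1a, Meis2 and Mitf, beside 16.3% of all genes). It was 0 within 100 kb (beside 4.75%) and 0 under the tags (beside 0.351%). Without the separately sequenced E16 libraries it was 2 (Lmx1a and Meis2, beside 7.85%). Leaving out each list gave 1 to 2, beside 5.88% to 7.22% of all genes. Meis2 was added without E16 Sox2-EGFP+ replicate 1 (6.94%) and Otx1 without E16 Sox2-EGFP- replicate 2 (6.01%). The Lmx1a difference of 3.75 peaks became -0.0833 within 100 kb and 1.6 under the tags (exact permutation p = 0.476). In lists shortened by a factor of 2 it was 1.75 (exact permutation p = 0.0857, groups apart, beside 2.58% of all genes). In the 7500 highest peaks of all 9 lists it was 1.83 (exact permutation p = 0.0238, groups apart, beside 1.11%). Mitf turned from -0.333 to 1.91 with all peaks, to 1 with ranking by fold enrichment and to 0.2 under the tags, Otx2 to 0.2 and Oc90 to -0.3 under the tags. In 3 of 4 E16 samples these tags go against the title and against the peak names inside the list. With ranking by fold enrichment Otx2 had more peaks in every Sox2-EGFP- list (a difference of -1), beside 3.79% of all genes. Within 100 kb fewer peaks are counted, and for the other settings the cause was not tested.

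With the 3 same-numbered pairs as a replicate block, 1 gene (Lmx1a) was higher in every pair, beside 6.07% of all genes, and its mean difference was 3.67 (exact sign-flip p = 0.25, the smallest that 3 pairs allow). Deviations of same-numbered lists correlated at 0.045, 0.0942 and 0.0207, each the best of its list but under the limit of 0.1 that was set for taking numbers as pairs. Whether same-numbered lists came from 1 litter is not given in the sources used here.

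Promoter peaks numbered 21 of 49 in lists of 20000, which are E14.5 and E16 lists alone, and 35 of 63 in all 9 lists at full length. These fractions cover different lists. The mean number of peaks at E16 minus that at E12 was -2 in the 7500 highest peaks and 4.09 per 7500 of all peaks.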
